A study of Rattus norvegicus with 10 samples.

Results

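Heat shock proteins of the cytosol and mitochondria were followed in the livers of rats given RG3487, a compound known to bind the alpha7 nicotinic acetylcholine receptor and the 5-HT3 serotonin receptor. Of 10 genes named (Hspa8, Hspa4, Hspa9, Hspd1, Hspe1, Dnaja1, Hsp90aa1, Hsp90ab1, Hsph1 and Hspb1), 8 had at least 1 probe set that the platform annotation gives to that gene alone. These genes had 14 probe sets among 15859 that are not array controls. Hspa8 and Hsp90aa1 were left out, because each of their probe sets is annotated to a second gene as well.

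The data are 10 Affymetrix expression arrays of liver RNA, 1 array per rat. The treated group was 5 Wistar Han rats, strain CRL:WI (Han), that received 180 mg/kg RG3487 by gavage (5 ml per kg), and the controls were 5 rats of the same strain given deionized water by the same route. All were 6 to 8 weeks old. The samples are labelled 24 h after the dose, while the series text names 2 h. Rats were housed in groups of 5. The sources used here do not say which rats shared a cage, nor their sex.

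Heat shock proteins are chaperones that hold or refold other proteins. HSP70 proteins such as Hspa8 in the cytosol and Hspa9 in mitochondria bind short unfolded stretches, J-proteins such as Dnaja1 deliver clients and start ATP hydrolysis, and exchange factors of the HSP110 type (Hspa4 and Hsph1) release the nucleotide. HSP90 proteins such as Hsp90ab1 finish the folding of kinases and steroid receptors, the Hspd1 and Hspe1 rings enclose proteins inside mitochondria, and Hspb1 is a small ATP-independent holdase. In stressed cells many of these genes are switched on together by heat shock factor Hsf1, which binds heat shock elements, inverted repeats of GAA in their promoters.

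The heat shock elements of the members are shown first, because Hspd1 and Hspe1, which lie head to head, have one between them. Of the 250 bases before each start site in RefSeq (build GRCr8), the promoters of 3 of the 8 genes held a 3-unit element (GAANNTTCNNGAA or TTCNNGAANNTTC, which are reverse complements of each other), as did 0.663% of all 33469 promoters. A further 3 (Hspa9, Dnaja1 and Hspb1) held only a 2-unit element (GAANNTTC or TTCNNGAA, each its own reverse complement, and contained in the longer motif), against 13.5% of all promoters with any 2-unit element. The promoters of Hsp90ab1 and Hspa4 held neither within this window. The start sites of Hspd1 and Hspe1 lie 290 bases apart on opposite strands of chromosome 9, and the overlapping elements between them form 1 run. The 30 bases around it are printed on each gene's own strand, followed by those around the elements of Hsph1, Hspa9, Dnaja1 and Hspb1, which has a pair of them, all 5′ to 3′. Capitals mark the elements.
Hspd1, minus strand, chr9:64084256-64084285: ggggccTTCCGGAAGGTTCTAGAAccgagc
Hspe1, plus strand, chr9:64084256-64084285: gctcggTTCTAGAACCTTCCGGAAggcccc
Hsph1, plus strand, chr12:10427323-10427352: tgccgcagaTTCTGGAAAGTTCtcctcagt
Hspa9, minus strand, chr18:26828464-26828493: gcagcaaacagGAAGTTTCtggtcaggcac
Dnaja1, plus strand, chr5:60638212-60638241: aaaagcctctaGAAGATTCtacaaggatcg
Hspb1, minus strand, chr12:26432412-26432441: cttcaactagaGAAGTTTCcagatgggggc
Hspb1, minus strand, chr12:26432392-26432421: agatgggggcaGAACCTTCctggccctgcc

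For Hspd1 the run begins 242 bases before its start site, and for Hspe1 it begins 65 bases before. That of Hsph1 begins 36 bases before the start site. Its 2-unit element farther upstream, at 105 bases, can be seen in the whole stretch of 250 bases before the gene, chr12:10427118-10427367.
Hsph1, upstream: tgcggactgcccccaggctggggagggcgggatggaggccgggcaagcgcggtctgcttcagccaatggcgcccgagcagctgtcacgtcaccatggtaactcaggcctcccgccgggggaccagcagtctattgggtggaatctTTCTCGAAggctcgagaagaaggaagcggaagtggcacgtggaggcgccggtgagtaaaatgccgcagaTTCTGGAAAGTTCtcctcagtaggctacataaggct

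The deposited values are MAS5 signal intensities on a linear scale. Every fold and log2 change is on the scale of log2(signal + 16), RG3487 minus vehicle, which understates the change of a dim probe set. The groups were compared with limma across 11894 probe sets, leaving out the dimmest 25%, with p-values adjusted by the Benjamini-Hochberg method, and those under 0.05 after adjustment were called. Of the 14 member probe sets 13 were bright enough to be tested. The arrays as deposited had nearly equal mean signals, and their number limits the precision.

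Of the 13 tested probe sets 7 rose with RG3487 and 0 fell, where 20.5% of all tested probe sets rose and 7.16% fell. The background depends on the scaling of the arrays: 12% rose and 10% fell with quantile normalization, 11.4% and 11.2% after each array was centred on its own median, and 53.1% and 3.04% with scaling to the hybridization controls (foreign transcripts spiked into every sample), where 6, 6 and 11 member probe sets rose and 0 fell. At an unadjusted p under 0.05, 9 member probe sets were higher and 0 lower, where 29.6% of all were higher and 11.2% lower. By gene, taking the brightest tested probe set, Hspd1, Hspe1, Dnaja1, Hsp90ab1 and Hspa4 rose and Hspa9, Hsph1 and Hspb1 did not pass, so 5 of 8 rose where 22.3% of 7727 genes did. The changes were small: their median was 0.289 in the 8 genes and 0.094 in all genes, and none reached 1.5-fold. The groups did not overlap in 6 member probe sets, all higher with RG3487, where 13.9% of all tested probe sets were separate in that direction. The plots of signal by animal and of the change by probe set show these values.

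**Figure D1:**
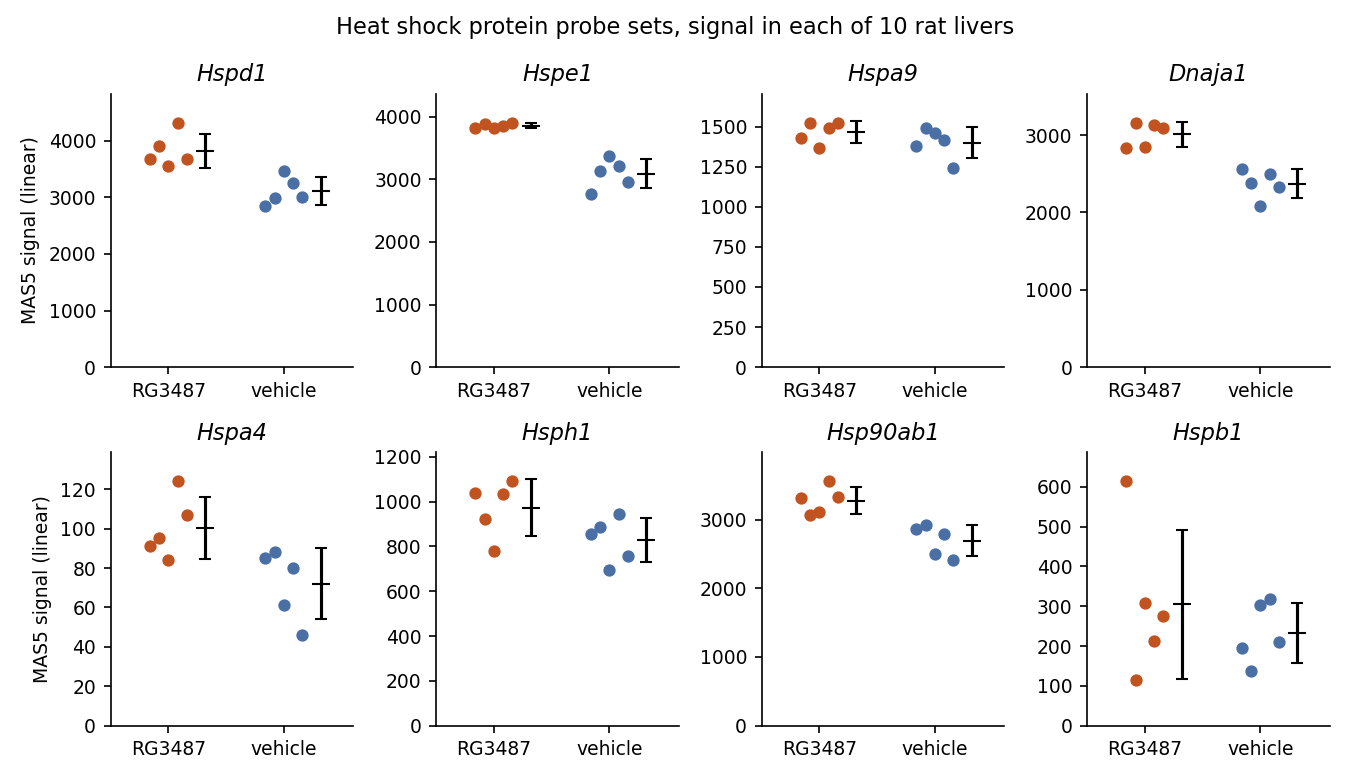
MAS5 signal on a linear scale in each of 5 RG3487 livers (orange) and 5 vehicle livers (blue), for the brightest tested probe set of each of the 8 genes; bars are mean ± SD. All RG3487 points of Hspd1, Hspe1, Dnaja1 and Hsp90ab1 lie above all vehicle points, while those of Hspa9, Hspa4, Hsph1 and Hspb1 overlap.

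**Figure D2:**
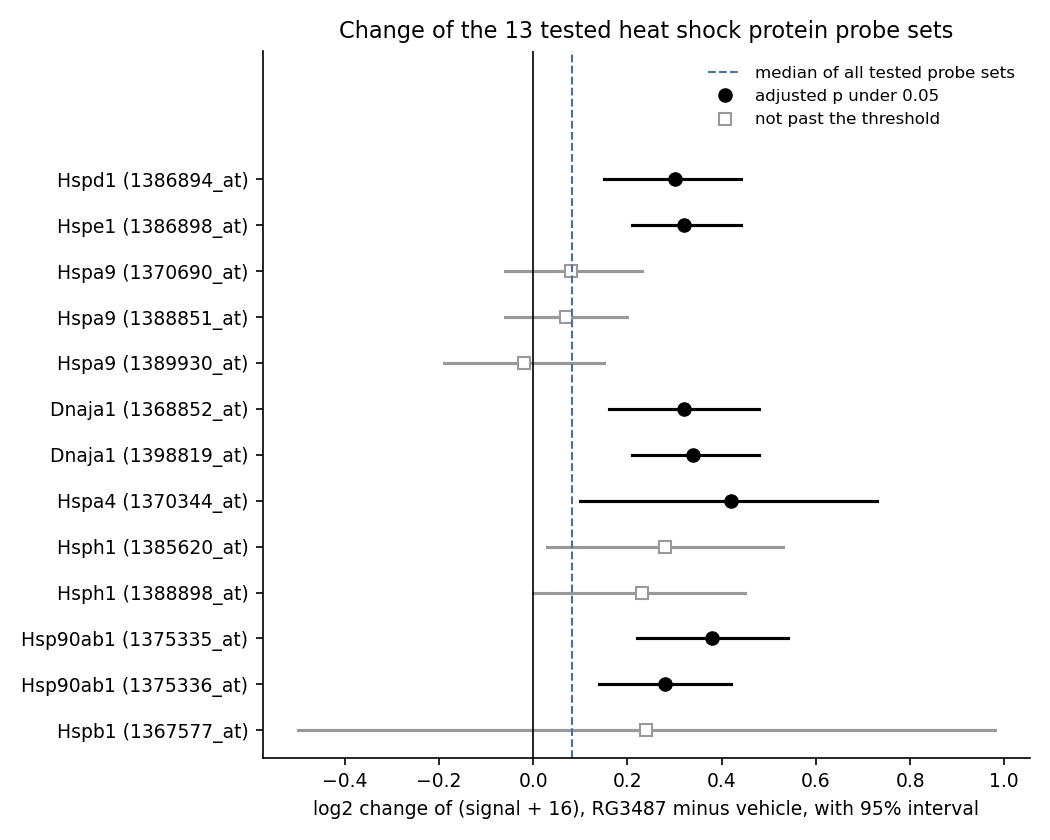
Log2 change of signal + 16, RG3487 minus vehicle, with its 95% interval from limma, for the 13 tested probe sets. Filled circles passed at an adjusted p under 0.05, and the dashed line is the median of all tested probe sets, 0.083. The intervals of the 3 Hspa9 probe sets include that line, as do those of Hsph1 and Hspb1. Hspb1 has by far the widest interval.

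Hspd1 encodes HSP60, the mitochondrial chaperonin. Its signal in the 5 RG3487 livers was 3677, 3897, 3555, 4315 and 3674, against 2840, 2990, 3469, 3250 and 3010 in the 5 vehicle livers. The lowest treated liver stood just above the highest vehicle liver, so the groups did not overlap. Hspd1 rose 1.23-fold (log2 change 0.30 ± 0.07 SE, limma adjusted p = 0.00705).

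Hspe1 encodes HSP10, the lid of the HSP60 ring. Its signal was 3826, 3887, 3815, 3855 and 3902 in RG3487 livers, against 2764, 3132, 3365, 3207 and 2957 in vehicle livers. The treated livers were almost alike, with 3857 ± 37.6, while vehicle livers averaged 3085 ± 232 (SD, n = 5 each). Hspe1 rose 1.25-fold (0.32 ± 0.05 SE, adjusted p = 0.00125), the smallest adjusted p among the members.

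The pair that shares the promoter region was compared directly. The log2 change of Hspe1 exceeded that of Hspd1 by 0.03 ± 0.05 SE (n = 5 per group; exact two-sided permutation p = 0.619, adjusted p = 0.619 over 2 pairs), a difference smaller than its error. The other 4 pairs chosen needed Hspa8 or Hsp90aa1 and were left out.

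Hspa9 encodes mortalin, the HSP70 of mitochondria, which pulls in precursors and passes them on to the chaperonin. In its brightest probe set, 1388851_at, the signal was 1428, 1523, 1366, 1488 and 1519 in RG3487 livers, against 1379, 1493, 1457, 1416 and 1244 in vehicle livers. The groups overlapped, with treated rats 2 and 5 above every vehicle liver and vehicle rat 5 below every treated one. Hspa9 did not pass (0.07 ± 0.06 SE, 95% interval -0.06 to 0.20, limma adjusted p = 0.413). The other bright probe set, 1370690_at, averaged 969 ± 88.6 in RG3487 livers, from the 867 of rat 1 to the 1109 of rat 5, and 913 ± 41.1 in vehicle livers (SD, n = 5 each). Its change was 0.08 ± 0.07, and that of a dim probe set, 1389930_at, was -0.02 ± 0.08 with signals of 36 to 44 and 39 to 45. The probe set too dim to be tested, 1391915_at, read 11 to 28 in RG3487 livers and 16 to 32 in vehicle livers. All 3 tested intervals of Hspa9 include 0, while those of Hspd1 (0.15 to 0.44) and Hspe1 (0.21 to 0.44) do not; the difference between Hspa9 and the chaperonin genes was not tested.

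Dnaja1 encodes a cytosolic J-protein that works with HSP70. Its brighter probe set, 1398819_at, read 2836, 3159, 2841, 3127 and 3095 in RG3487 livers, against 2561, 2387, 2082, 2499 and 2328 in vehicle livers. Every treated liver was above every vehicle liver. The rise was 1.27-fold (0.34 ± 0.06 SE, limma adjusted p = 0.002). The other probe set, 1368852_at, was separate too, with 1196 to 1559 in RG3487 livers and 983 to 1169 in vehicle livers, and rose by 0.32 ± 0.07 (adjusted p = 0.00782).

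Hsp90ab1 encodes the constitutive cytosolic HSP90. In the brighter of its 2 probe sets, 1375336_at, RG3487 livers read 3316, 3066, 3108, 3557 and 3323 and vehicle livers 2857, 2917, 2498, 2791 and 2409. The groups did not overlap, and the change was 0.28 ± 0.06 SE, 1.22-fold (limma adjusted p = 0.00774). In 1375335_at RG3487 livers read 1998 to 2548 and vehicle livers 1613 to 1985, so the gap between the groups was narrow. That probe set rose 1.30-fold (0.38 ± 0.07, adjusted p = 0.00283).

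Hspa4 and Hsph1 encode exchange factors of the HSP110 family. Hspa4 had a dim probe set, with 91, 95, 84, 124 and 107 in RG3487 livers and 85, 88, 61, 80 and 46 in vehicle livers. The lowest treated liver lay among the vehicle livers, and vehicle rats 3 and 5 were low. Hspa4 rose 1.34-fold, close to the threshold (0.42 ± 0.15 SE, limma adjusted p = 0.0494). The call was lost under 14 of 20 alternatives (adjusted p 0.00483 to 0.113 over all of them), among them leaving out RG3487 rat 1, 2, 4 or 5 or vehicle rat 3, 4 or 5, with changes of 0.30 to 0.48 over the arrays left out.

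Hsph1 was higher on average in both of its probe sets but passed in neither. In the brighter one, 1388898_at, RG3487 livers read 1041, 924, 778, 1036 and 1091 and vehicle livers 856, 885, 697, 947 and 759. Treated rats 2 and 3 lay within the vehicle range. The change was 0.23 ± 0.10 SE (limma adjusted p = 0.117), and it passed without RG3487 rat 3 (0.30, adjusted p = 0.0264; range over the alternatives 0.00439 to 0.297). The dimmer probe set, 1385620_at, with 260 to 368 in RG3487 livers and 208 to 303 in vehicle livers, changed by 0.28 ± 0.11 (adjusted p = 0.0868), and passed without vehicle rat 1 (0.34, adjusted p = 0.0471; range 0.00443 to 0.26). The changes of Hsph1 and Hspa4 differed by -0.19 ± 0.12 SE (exact permutation p = 0.151, adjusted p = 0.302).

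Hspb1 encodes HSP27, the small heat shock protein. It was the most variable member, with 614, 116, 307, 213 and 275 in RG3487 livers and 196, 138, 302, 318 and 209 in vehicle livers. Treated rats held both the highest and the lowest value of all 10 animals. Hspb1 did not pass (0.24 ± 0.34 SE, limma adjusted p = 0.631), and its change was -0.05 without RG3487 rat 1.

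Within a group, some animals stood high or low in most members other than Hspb1, and others did not. RG3487 rat 3 and vehicle rat 5 were each below their group's mean in 7 of 7 genes, by 0.13 and 0.15 on average on the log2 scale. Vehicle rat 4 was above its group's mean in 7 of 7, and RG3487 rats 4 and 5 and vehicle rat 2 in 6 of 7. The other 4 animals were mixed, above the mean in 2 to 4 of 7 genes, with mean deviations of -0.05 to 0.03. Hspb1 was left aside here after its values were seen. These deviations describe single arrays and share each array's scaling.

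Array scaling touches all of these values. The hybridization controls averaged 9.645 ± 0.028 on the log2 scale on RG3487 arrays and 9.85 ± 0.034 on vehicle arrays (SD, n = 5 each; exact permutation p = 0.00794, the smallest possible, adjusted p = 0.0159 over 4 array measures), and the median signal was 94.4 ± 1.5 and 88.6 ± 2.6. The 3′ minus 5′ log2 difference of the Gapdh control, a measure of RNA integrity, was 0.202 ± 0.033 and 0.264 ± 0.05 (adjusted p = 0.0741). Hspd1, Hspe1, Dnaja1 and Hsp90ab1 passed as higher under all 4 scalings that were run, in all 6 of their probe sets. Hspa4 did not pass by limma with quantile normalization (0.34, adjusted p = 0.0903) or centring on the array median (0.34, adjusted p = 0.0891). Under each of these 4 of 8 member genes rose. With scaling to the hybridization controls Hspa4 passed (0.59, adjusted p = 0.00483). Relative to the median of all probe sets, which was 0.083 as deposited, 0.013 with quantile normalization, 0.005 after centring each array on its own median and 0.263 with scaling to the hybridization controls, the change of Hspe1 was 0.24, 0.39, 0.24 and 0.26. That of Hspa9 in 1388851_at was -0.01, 0.02, -0.01 and 0.01 in the same order. Neither Hspa9 nor Hsph1 passed with the first 3 of these scalings, and both did with scaling to the hybridization controls, where Hspa9 changed by 0.27 (adjusted p = 0.00561) and Hsph1 by 0.43 (adjusted p = 0.00439). At the threshold of 0.05, Hsph1 otherwise passed in the 2 cases of an array left out that are given with its values, and at a threshold of 0.1 its dimmer probe set passed. That scaling assumes equal amounts of control in every sample, which was not tested.

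**Figure D3:**
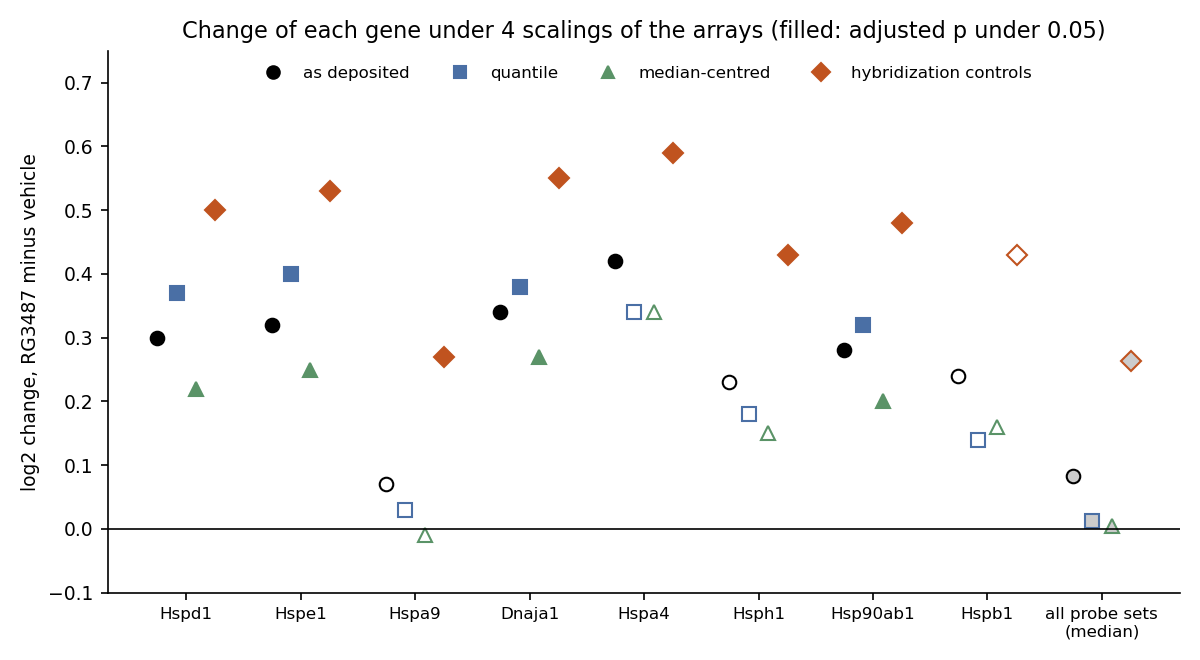
Log2 change, RG3487 minus vehicle, of each gene's brightest tested probe set under 4 scalings of the arrays; filled symbols passed at an adjusted p under 0.05, and the grey symbols at the right are medians of all tested probe sets. Hspd1, Hspe1, Dnaja1 and Hsp90ab1 are filled under each scaling, and Hspa9 follows the median of all probe sets. Hspa4 is filled as deposited and with the hybridization controls only.

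The tissue label was set against cell type markers. All marker counts and sums are from the arrays as deposited, where 7.4% of all genes fell and 22.3% rose. Of 7 hepatocyte markers tested 4 fell and 0 rose. Their changes ran from -0.30 in Ass1 to -0.02 in albumin, with a median of -0.186. Their summed signal was 41389 to 49705 on RG3487 arrays and 49389 to 53351 on vehicle arrays. Albumin (Alb) read 6895 ± 728 and 6959 ± 433 (SD, n = 5 each) and did not pass (-0.02 ± 0.07, limma adjusted p = 0.875). Of 8 Kupffer cell markers 2 fell, with sums of 2391 to 3042 and 2864 to 3446, and of 5 endothelial markers 1 fell, with 1949 to 2277 and 2300 to 2569. Of 6 stellate cell markers 1 rose and 1 fell (1428 to 1669 and 1265 to 1664), and neither the 1 bile duct marker, Epcam (log2 change 0.27 ± 0.16, adjusted p = 0.237), nor the 3 blood cell markers (2692 to 3560 and 2860 to 4201) passed. In whole tissue, fewer cells of a type and less RNA per cell cannot be told apart, and the part of cell makeup in the heat shock values was not tested.

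Related chaperones, co-chaperones and regulators, some of them of the endoplasmic reticulum, were read from 7 lists. They are called partner genes below, though not all of them work with the members. Of 82 tested genes in these lists 32 rose and 4 fell, 43.9% called, where 29.7% of all genes were called (22.3% higher and 7.4% lower). Their median change was 0.191. The 32 and 4 became 19 and 7 with quantile normalization, 19 and 6 after each array was centred on its own median and 63 and 2 with scaling to the hybridization controls. Over all genes, 13.2% were higher and 10.1% lower with the first of these, 12.8% and 11.2% with the second, and 56.1% and 3.21% with the third.

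Among J-proteins other than Dnaja1, 10 of 29 rose and 0 fell (14 higher and 0 lower at an unadjusted p under 0.05, where 31.8% of all genes were higher and 11.2% lower), with a median of 0.199. Dnaja2, a close relative of Dnaja1 in the cytosol, read 1068, 1030, 988, 1163 and 1159 in RG3487 livers and 878, 906, 851, 915 and 852 in vehicle livers. The groups were separate, and Dnaja2 rose by 0.29 ± 0.06 (limma adjusted p = 0.00388). Dnajc15, a J-protein of the mitochondrial inner membrane, rose by 0.44 ± 0.08 (adjusted p = 0.00278). Dnajc11, of the mitochondrial outer membrane, rose by 0.55 ± 0.11 (adjusted p = 0.00339). Its probe set was dim, with 61 to 94 in RG3487 livers and 38 to 58 in vehicle livers. Dnajb1, a J-protein known to be strongly heat-inducible and named here after its value was seen, changed by 0.22 ± 0.14 (adjusted p = 0.255).

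Exchange factors and regulators of HSP70 rose in 5 of 13 and fell in 1. Stip1, also called HOP, bridges HSP70 and HSP90. Its signal was 586, 599, 524, 765 and 639 in RG3487 livers, against 475, 391, 370, 445 and 339 in vehicle livers. Every treated liver was above every vehicle liver, and Stip1 rose 1.52-fold (0.60 ± 0.11, limma adjusted p = 0.00202). St13, the HSP70-interacting protein HIP, rose by 0.29 ± 0.07 (adjusted p = 0.00637). Bag3, named after its value was seen as Dnajb1 was, rose by 0.31 ± 0.09 (adjusted p = 0.0319). The gene that fell was Sil1, the exchange factor of the endoplasmic reticulum HSP70, with 60 to 88 in RG3487 livers and 100 to 132 in vehicle livers (-0.55 ± 0.10, adjusted p = 0.00231).

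Of 18 HSP90 co-chaperones 10 rose and 1 fell, with a median of 0.237. Ahsa1, which activates the ATPase of HSP90, read 883, 803, 686, 908 and 904 in RG3487 livers and 578, 540, 579, 593 and 478 in vehicle livers. The groups were wide apart, and Ahsa1 rose 1.49-fold (0.58 ± 0.09, limma adjusted p = 0.000759). Tomm70, a receptor of the mitochondrial outer membrane that takes precursors from HSP70 and HSP90, read 769 to 1019 in RG3487 livers and 336 to 629 in vehicle livers and rose 1.72-fold (0.78 ± 0.15, adjusted p = 0.00282). Nudc rose by 0.33 ± 0.06 (adjusted p = 0.00157). Fnip1, named after its value was seen, was the one that fell (-0.31 ± 0.08, adjusted p = 0.0187).

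Mitochondrial folding and quality control genes moved both ways, with 5 of 14 higher and 2 lower. Phb2, a prohibitin that forms rings in the inner membrane, rose by 0.46 ± 0.07 (limma adjusted p = 0.00105), and Pam16, which regulates the J-protein of the import motor, by 0.42 ± 0.07 (adjusted p = 0.00132). Clpx, the unfoldase of the matrix protease CLPXP, read 978, 919, 1269, 919 and 798 in RG3487 livers and 1703, 1492, 1323, 1406 and 1490 in vehicle livers. It was lower in every treated liver and fell by 0.61 on the log2 scale (adjusted p = 0.00189). The other that fell was Lonp1, a matrix protease (-0.36 ± 0.07, adjusted p = 0.0032), whereas Clpp, the peptidase partner of Clpx, rose by 0.36 ± 0.07 (adjusted p = 0.00285). Lonp1 and Clpp were named after their values were seen, and so was Trap1, the mitochondrial HSP90, which did not pass (584 ± 38.9 and 583 ± 46.1, adjusted p = 0.986).

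None of 3 other HSP70 family genes passed by limma (1 lower at an unadjusted p under 0.05). Their changes ran from -0.26 ± 0.11 in Hspa13 to 0.14 ± 0.10 in Hspa14. The third was Hspa1a, the stress-inducible HSP70, named after its values were seen. It read 56, 89, 68, 210 and 105 in RG3487 livers and 150, 88, 51, 240 and 59 in vehicle livers, with rat 4 the highest of each group (-0.07 ± 0.37, adjusted p = 0.907). Of 2 other small heat shock protein genes, Hspb8, which acts in chaperone-assisted autophagy, rose by 0.42 ± 0.13 (adjusted p = 0.0326). The other, Hspb6, named after its value was seen, was lower and did not pass (-0.34 ± 0.12, adjusted p = 0.0581). Of 3 genes of heat shock factors and their regulators Hsf2 rose by 0.27 ± 0.08 (adjusted p = 0.0228). Hsf1, dim at 58 ± 11 and 52.6 ± 10.3 (SD, n = 5 each) and named after its value was seen, did not pass (adjusted p = 0.553). The third, the regulator Hsbp1, also named after its value was seen, did not pass either (-0.08 ± 0.05, adjusted p = 0.29).

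**Figure D4:**
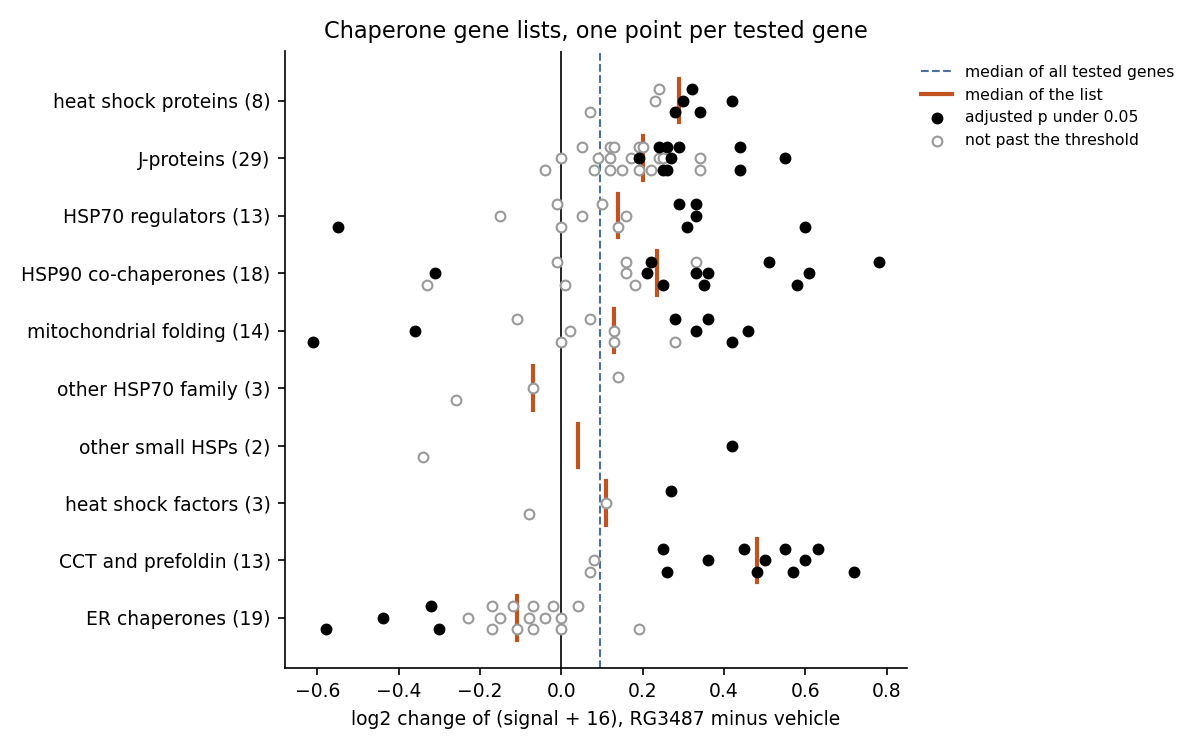
Log2 change of signal + 16, RG3487 minus vehicle, for each tested gene of 10 chaperone lists, with the number of genes in brackets; filled points passed at an adjusted p under 0.05, the orange bar is the list's median and the dashed line the median of all genes, 0.094. The medians are 0.289 for the heat shock proteins, 0.481 for CCT and prefoldin and -0.111 for the chaperones of the endoplasmic reticulum.

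Chaperones of neighbouring systems are given for comparison, with no test of the difference. Over all genes 22.3% rose and 7.4% fell. Cytosolic chaperonin (CCT) and prefoldin genes rose in 11 of 13 and fell in 0, with Cct8 at 0.72 ± 0.09, Tcp1 at 0.60 ± 0.07 and Cct5 at 0.55 ± 0.07 (limma adjusted p = 0.000212, 0.000167 and 0.000212). Chaperones of the endoplasmic reticulum rose in 0 of 19 and fell in 4 (1 higher and 6 lower at an unadjusted p under 0.05), among them Pdia6 (-0.44 ± 0.07, adjusted p = 0.000862), P4hb (-0.32 ± 0.05, adjusted p = 0.00138) and Sdf2l1 (-0.58 ± 0.10, adjusted p = 0.0016). With quantile normalization 0 of the 19 were higher and 5 lower, where 13.2% of all genes were higher and 10.1% lower. After each array was centred on its own median 0 were higher and 6 lower, where 12.8% and 11.2% of all genes were. With scaling to the hybridization controls 5 were higher and 2 lower, where 56.1% of all genes were higher and 3.21% lower. Of the CCT and prefoldin genes 9, 9 and 13 were higher and 0 lower in the same order.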

How the data were processed

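Liver RNA of 10 rats was measured on 1 array each, with labelling from 1 ug of RNA. The authors deposited a signal intensity per probe set, made with MAS5 per the submitters' processing notes; the sources used here give neither its version nor its scaling target. From it log2(signal + 16) was computed. Control probe sets and the dimmest 25% were left out, and groups were compared with limma 3.58.1 (lmFit, then eBayes with a trend; R 4.3.3), two-sided, with Benjamini-Hochberg adjustment over 11894 probe sets. Of 15859 probe sets, 12562 carried 1 gene symbol, 332 several and 2965 none. A gene was read from its brightest tested probe set. Promoters came from RefSeq, build GRCr8, and all 8 genes matched by symbol. Member pairs and array measures were compared with exact permutation tests (smallest possible p 0.00794).

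The members and lists were chosen with earlier results of these data known. Genes named in lists are up to 3 with the smallest p past the threshold, or the highest and lowest change where none passed. Alternatives were pseudocounts 1 and 64, 3 other scalings, 2 filters, eBayes settings, array weights, a replicate block, other thresholds and each array left out.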

Additional observations from a re-analysis of the deposited data

How the results depend on the processing

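The calls of Hspd1, Hspe1, Dnaja1 and Hsp90ab1 held under all 21 alternatives computed for each of their probe sets. With scaling to the hybridization controls, 6678 of all probe sets, 11 of 13 member probe sets and 65 of 82 partner genes passed. So did 7 of 19 chaperones of the endoplasmic reticulum, 5 higher and 2 lower, where 56.1% of all genes were higher and 3.21% lower. At an adjusted p under 0.1, 7 of the 19 passed, 1 higher and 6 lower. With a change of at least 1.5-fold required, 462 probe sets, 0 member probe sets, 0 member genes, 4 partner genes, 0 chaperones of the endoplasmic reticulum and 3 CCT and prefoldin genes passed by limma. With each array left out in turn, 2491 to 3449 of all probe sets, 6 to 8 member probe sets and 4 to 6 member genes passed. So did 26 to 37 partner genes, 3 to 7 chaperones of the endoplasmic reticulum and 10 to 11 CCT and prefoldin genes. The count of 7 came without RG3487 rat 1, with 1 higher and 6 lower. Changes near 0 turned sign: Hspa9 was -0.01 in 1388851_at with arrays centred on their median, and 1389930_at was 0.13 with the hybridization controls and -0.04 to 0.01 with an array left out, while Hspb1 was -0.05 to 0.51. Same-numbered rats are different animals, whose deviations from group means correlated by -0.037 to 0.174, and 2 of 5 RG3487 rats correlated best with their own number. With the rat number as a block, 2918 probe sets, 6 member probe sets, 4 member genes and 33 partner genes passed, and among the members the call of Hspa4 was lost (0.42, adjusted p = 0.0538). Pairing by number leaves a smallest exact p of 0.0625, so the pair differences (0.03 and -0.19) cannot pass under it. The cause of these shifts was not tested. The number of arrays limits the precision, and Hspa4 and Hspa9 (1389930_at) were dim.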

Other observations

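A 3-unit heat shock element in the 250 bases before the start site was read against the calls of all genes. Of 25 tested genes with such an element 7 rose and 0 fell (28% higher), against 22.5% higher and 7% lower among 6557 tested genes with a promoter sequence. The 7 were Hspd1, Hspe1, Entpd5 (1.10 ± 0.13, limma adjusted p = 0.000223), Cul1 (0.44 ± 0.07), Agk (0.32 ± 0.08), Tm6sf2 (0.26 ± 0.07) and Arpc2 (0.18 ± 0.05), which are named because they are all of those called. Of these, Entpd5, an enzyme of glycoprotein folding in the endoplasmic reticulum, had the largest change. Hspd1 and Hspe1 share 1 run of elements, which is counted for each of them among the 25 and the 7. With Hsph1, 3 of the 25 are members of the heat shock genes described above. The 28% therefore includes calls already given and is not separate evidence about them.

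The genes whose deviations from group means over the 10 animals were most like the mean of the 8 heat shock genes were LOC100912002 (Pearson r = 0.96), Lgals1 (0.95), Prtfdc1 (0.94), Dhx15 (0.94) and Atxn3 (0.94). They are the highest of all tested genes, given as a description with no test. Without the 2 animals farthest from the median of that mean, r was 0.91, 0.81, 0.94, 0.79 and 0.82 in the same order. The mean includes Hspb1, the most variable member, with each gene scaled to the same spread. The 10 animals share the scaling of their arrays. Of the 5, Dhx15 rose with RG3487 (0.60, limma adjusted p = 0.00185), and the others did not pass.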
